A study of Mus musculus with 18 samples.

Results

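The subunits of the respiratory chain and of ATP synthase are described here in mouse liver RNA, with the genes of the nucleus and those of mitochondrial DNA kept apart. Members were the protein-coding rows whose symbol begins with Nduf and a letter among a, b, c, s and v followed by a digit, is Sdha to Sdhd, or begins with Uqcr, Cox4 to Cox8, Atp5, mt-Nd, mt-Co, mt-Atp or mt-Cytb. The rule took 97 of the 37315 rows of the count table. Of these, 84 are nuclear (35 in complex I, 4 in complex II, 8 in complex III, 20 in complex IV and 17 in complex V) and 13 are mitochondrial (7, 0, 1, 3 and 2 in the same order). Cyc1, a complex III subunit, and Ndufab1, the acyl carrier subunit of complex I, fall outside the naming rule and are counted in a companion list below. The rule used no measured value.

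The study measured polyadenylated liver RNA of mice aged 2, 8 and 16 weeks, to compare the response of the liver to asparaginase across ages. Asparaginase (L-asparaginase, Elspar) is an anticancer enzyme that breaks down asparagine and glutamine in the blood. Mice received 3 international units per gram of body weight, or the same volume of phosphate buffered saline (PBS), by intraperitoneal injection once a day. Injections numbered 7 at 2 and 16 weeks and 8 at 8 weeks, and livers were taken 7.5 h after the last one. All 6 groups were of the C57BL/6J background, carried no labelled allele and held 3 libraries each (18 in all), of both sexes by their labels in every group. Each library was treated as 1 mouse, and p-values measure the spread between these libraries.

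In the respiratory chain, complexes I and II pass electrons from NADH and succinate to ubiquinone, complex III hands them to cytochrome c, and complex IV reduces oxygen. The resulting proton gradient drives complex V, the ATP synthase. Mitochondrial DNA encodes core subunits of all of them except complex II, whose genes are entirely nuclear, so the chain is assembled from the products of both genomes, and liver is rich in it.

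Total counts per library were between 24690871 and 46949361. The 10 hepatocyte markers were present in every group, with summed levels between 67819 and 112271 CPM, the counts relative to library size after scaling for composition by the trimmed mean of M-values (TMM). Of the 2-week libraries, 3 carried both Xist and Y-linked transcripts and went against a single labelled sex: PBS library 1 (Xist 263 CPM, Y-linked genes 52.4 CPM), PBS library 2 (361 and 57.3) and asparaginase library 3 (279 and 57). PBS library 1 at 8 weeks also stood apart, since it was the highest library of all for 70 of the 81 nuclear members tested. Its nuclear members summed to 11074 CPM, where the other 17 libraries gave between 6876 and 9130 CPM. In these bulk samples, fewer cells of a type and less RNA per cell cannot be told apart.

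The starts of some nuclear genes are shown because binding sequences of the transcription factors NRF1, GABPA (an ETS factor) and YY1 are textbook features of nuclear respiratory gene promoters. Promoter windows from 250 bases before to 50 bases after the gene start came from RefSeq (GRCm38.p6) for 66 of the 84 nuclear members. The NRF1 core (GCGCA, then any base, then GCGC), on either strand, was found in 17 of them (25.8%), against 5.19% of the windows of all 27025 genes. The ETS sequence CCGGAAGT was found in 5 (7.58% against 4.31%), and the YY1 sequence AAGATGGCG in 7 (10.6% against 1.64%). At least 1 of these motifs was in 27 of the 66 (40.9%), against 10.3% of all windows. By complex these were 12 of 31 in complex I, 2 of the 10 common subunits of complex IV and 8 of 13 in complex V. A match describes the letters in the window and does not show binding. The following matches belong to members that the results below turn on, with the motif in capitals between 10 flanking bases on each side. All are written 5′ to 3′ on the minus strand, at chr9:50603909-50603938 for Sdhd, at chr10:80406870-80406897 for Uqcr11, and at chr13:74350319-74350348 and chr13:74350276-74350305 for Sdha.
Sdhd, NRF1 core: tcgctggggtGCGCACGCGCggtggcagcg
Uqcr11, ETS: tctctcctccCCGGAAGTagatgtcaat
Sdha, NRF1 core: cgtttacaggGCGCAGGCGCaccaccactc
Sdha, NRF1 core, nearer the start: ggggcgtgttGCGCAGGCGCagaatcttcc
Ndufb3, the other nuclear gene called in the treatment comparison, had none of the motifs in its window.

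A stretch of mitochondrial DNA is shown because 1 RNA there carries both ATP synthase genes. The coding sequences of mt-Atp8 and mt-Atp6 overlap by 43 bases on the plus strand at chrM:7927-7969 (GRCm38), where the capitals mark the start codon of mt-Atp6. Reads within it can belong to either gene.
mt-Atp8 and mt-Atp6 overlap: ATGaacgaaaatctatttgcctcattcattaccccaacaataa

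Mitochondrial transcripts were far more abundant than nuclear ones. On a scale per kilobase of transcript, the mean over the 18 libraries had a median of 4760 CPM per kb for the 13 mitochondrial members and 82.9 CPM per kb for the 81 nuclear members tested. The highest mitochondrial level was that of mt-Co1, the catalytic subunit of complex IV, at 15130 CPM per kb, followed by mt-Co3 (10489), mt-Atp6 (9934) and mt-Co2 (9806). The lowest mitochondrial levels were those of mt-Nd6 (2276), mt-Nd5 (2262) and mt-Nd3 (2247). Among nuclear members the highest were 3 subunits of ATP synthase, Atp5b (491 CPM per kb), Atp5g3 (354) and Atp5a1 (276), which are the catalytic beta subunit, a form of the membrane c subunit and the alpha subunit. The highest nuclear level lay below the lowest mitochondrial one. Near-identical pseudogene copies, which could share reads, were found among the annotated transcripts for 9 of the 13 mitochondrial members. None was found there for mt-Nd1, mt-Nd6, mt-Cytb and mt-Atp8. Nuclear sequence outside the annotated transcripts was not searched, so copies of these genes could exist. A poly(A) library need not recover mitochondrial and nuclear RNA equally, and this was not tested.

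Most nuclear members varied little. The SD of log2 CPM over the 18 libraries was under 0.25 in 66 of 81 members, and among the least variable were Ndufa8 (0.13), an accessory subunit of complex I, and Sdhc (0.14), a membrane anchor of complex II. The most variable were 3 tissue isoforms of complex IV, Cox8b (2.56), Cox6a2 (2.08) and Cox6b2 (1.42), at mean levels of 1.67, 3.33 and 0.317 CPM. The mitochondrial members had SDs between 0.21 (mt-Co1) and 0.42 (mt-Nd6).

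Asparaginase was compared with PBS within each age by edgeR's quasi-likelihood test over 16213 genes, with Benjamini-Hochberg adjustment and a sex term within each age. A gene was called at an adjusted p below 0.05, and fold changes are log2 values of asparaginase over PBS with their standard error (SE). At no single age was a nuclear or mitochondrial member called. Of all genes tested, 0.432% were called at 2 weeks, 0.364% at 8 weeks and 0.234% at 16 weeks. At an unadjusted p below 0.05, edgeR gave 6 of 81 nuclear members at 2 weeks (5 lower, where 5.96% of all genes were), 13 at 8 weeks (12 lower, against 8.82%) and 6 at 16 weeks (all 6 lower, against 5.33%). The same count for the 13 mitochondrial members was 0, 0 and 8, all 8 lower. DESeq2 called Cox7a2l at 2 weeks (3.30% of all genes with an adjusted p), no member at 8 weeks (4.06%), and mt-Cytb, mt-Nd4 and mt-Atp8 at 16 weeks, all lower (1.06% of all genes were lower).

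At 16 weeks the mitochondrial members were lower after asparaginase in almost every gene, although no gene passed edgeR's threshold. Cytochrome b of complex III, mt-Cytb, was at 7349, 7437 and 7487 CPM in the PBS libraries and at 5132, 5153 and 5582 CPM in the asparaginase libraries. All 3 treated libraries lay below all 3 controls, with a log2 fold change of -0.47 (SE 0.14, adjusted p = 0.222 by edgeR). In complex V, mt-Atp8 was at 887, 843 and 944 CPM against 621, 640 and 657 CPM, without overlap (-0.49, SE 0.14, adjusted p = 0.232 by edgeR). Its neighbour mt-Atp6, the proton channel subunit, was at 6748, 6595 and 7236 CPM against 4858, 5156 and 5227 CPM, again without overlap (-0.44, SE 0.18, adjusted p = 0.369 by edgeR).

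In complex I, the proton-pumping subunit mt-Nd4 was at 6395, 6555 and 7442 CPM in the 16-week PBS libraries and at 4694, 4950 and 5160 CPM after asparaginase. The groups did not overlap (-0.48, SE 0.15, adjusted p = 0.251 by edgeR). Its partner on the same RNA, mt-Nd4l, was at 828, 842 and 966 CPM against 615, 637 and 613 CPM, the lowest fold change of the mitochondrial genome at this age (-0.54, SE 0.19, adjusted p = 0.302 by edgeR). The membrane subunit mt-Nd2 was also without overlap, at 4279, 3961 and 5404 CPM against 3473, 3949 and 3468 CPM, although the closest pair of libraries was nearly equal (-0.40, SE 0.15). For mt-Nd3 the values were 703, 659 and 708 CPM against 529, 541 and 491 CPM (-0.44, SE 0.17), and for mt-Nd5 3412, 3428 and 3508 CPM against 2823, 3209 and 2814 CPM (-0.25, SE 0.20). Both were lower in every treated library than in every control.

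The complex I genes mt-Nd1 and mt-Nd6 overlapped between the groups. The values of mt-Nd1 were 3995, 3531 and 4131 CPM in the controls and 3445, 3801 and 3727 CPM in the treated mice (-0.10, SE 0.14). Those of mt-Nd6, which is transcribed from the opposite strand to the other members, were 988, 988 and 850 CPM against 690, 920 and 888 CPM (-0.12, SE 0.16). Whether the counting used strand is not given in the sources used here, so reads of mt-Nd6 and of RNA antisense to it could be mixed.

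In complex IV, mt-Co1 was at 20602, 20471 and 24045 CPM in 16-week controls and at 18685, 19990 and 18960 CPM in treated mice (-0.21, SE 0.17), with no overlap but with the nearest libraries close. The copper-binding subunit mt-Co2 was at 6395, 5981 and 6585 CPM against 4756, 5043 and 5366 CPM (-0.32, SE 0.15). The third core subunit, mt-Co3, was at 7745, 7812 and 8520 CPM against 6188, 6304 and 6251 CPM (-0.38, SE 0.17). In all, 11 of the 13 mitochondrial members had treated libraries entirely below the controls at 16 weeks, where 9.63% of all genes tested did so. Their median log2 fold change was -0.40, with 0.00 over all genes, and all 13 had their lowest library of the 18 among the 16-week asparaginase libraries (9 in library 1 and 4 in library 3).

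**Figure D1:**
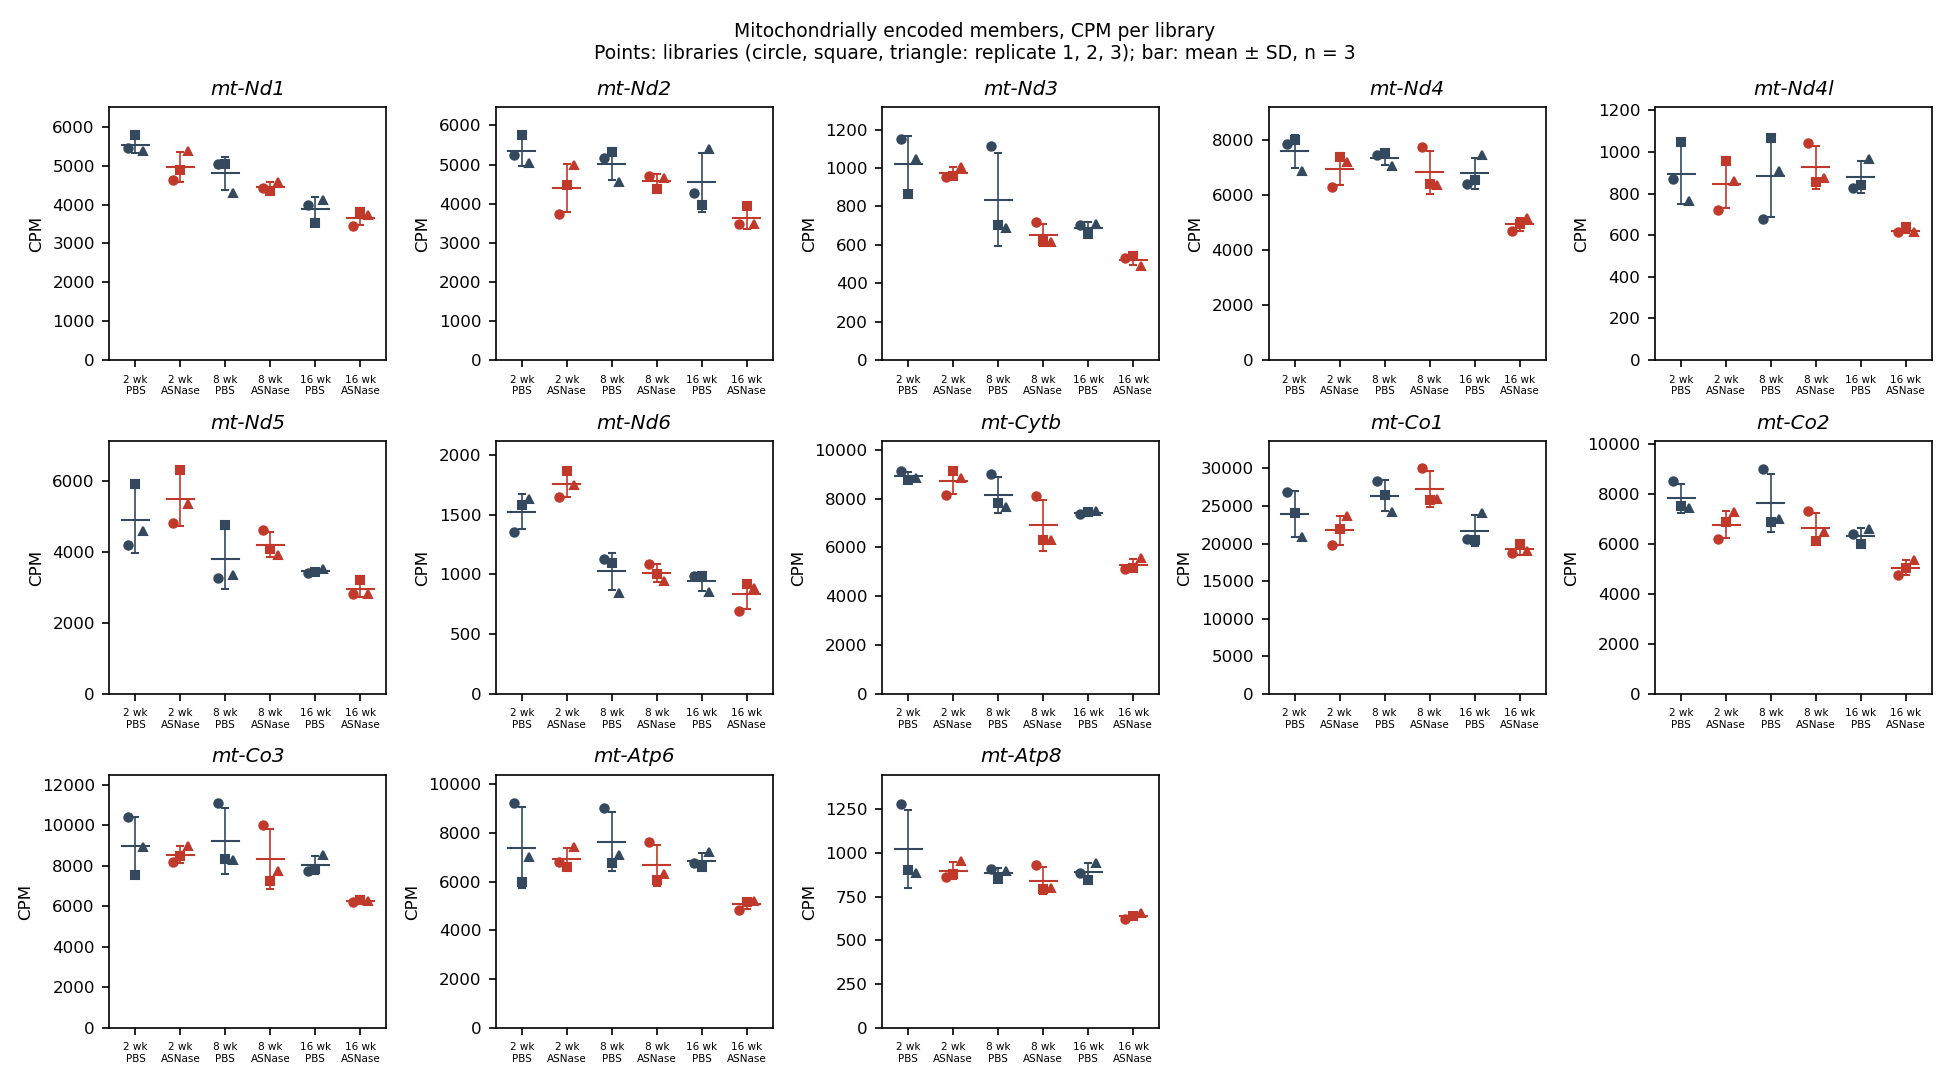
Levels of the 13 mitochondrial members in CPM (linear axes from 0) in the 6 groups, with PBS libraries in blue and asparaginase libraries in red; points are libraries, and bars are the mean ± SD of 3. The 16-week asparaginase group has the lowest mean in every panel, and they lie entirely below the 16-week PBS libraries in 11 of the 13, mt-Nd1 and mt-Nd6 being the exceptions.

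At 2 and 8 weeks the mitochondrial members stayed nearer to the controls. Their median log2 fold change was -0.09 at 2 weeks (all genes -0.01) and -0.07 at 8 weeks (all genes 0.01). At 2 weeks 2 of the 13 had treated libraries entirely below the controls (8.64% of all genes), and 1, mt-Nd6, had them above (8.09% of all genes). Its values were 1356, 1580 and 1633 CPM with PBS and 1649, 1865 and 1750 CPM under asparaginase (0.16). Without 2-week PBS library 3, the median at 2 weeks was -0.31. At 8 weeks no mitochondrial member had treated libraries entirely below the controls, where 8.57% of all genes did. The difference between ages was not called for any member: in the joint test of the age difference, edgeR called 0 of 81 nuclear and 0 of 13 mitochondrial members (0.00% of all genes). At an unadjusted p below 0.05 that test gave 2 nuclear and 0 mitochondrial members (9.43% of all genes), and DESeq2 called none (0.956% of all genes).

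The 13 mitochondrial members gave 70326, 69103 and 77826 CPM in 16-week PBS mice and 56508, 60294 and 59203 CPM in asparaginase mice of that age, without overlap. At 2 weeks the controls gave 91542, 83793 and 79265 CPM and the treated mice 72723, 80713 and 83636 CPM. The controls of 8 weeks gave 91248, 82660 and 76895 CPM and the treated mice 88320, 74088 and 75456 CPM. Both of these pairs of groups overlapped. The 84 nuclear members summed to 7162, 7324 and 8062 CPM with PBS and to 6876, 6945 and 7101 CPM with asparaginase at 16 weeks. These sums were also lower after asparaginase without overlap, although the nearest libraries were close.

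The ratio of the mitochondrial to the nuclear sum depends on no scaling between libraries. Its log2 value was 3.30, 3.24 and 3.27 in the 16-week PBS libraries and 3.04, 3.12 and 3.06 in the 16-week asparaginase libraries. The treated libraries were lower without overlap, by -0.20 in the mean, and the difference stayed between -0.22 and -0.18 when any 1 of these libraries was left out. At 2 weeks the ratio was 3.37, 3.32 and 3.20 with PBS against 3.09, 3.38 and 3.40 with asparaginase. At 8 weeks it was 3.04, 3.18 and 3.25 against 3.32, 3.18 and 3.15. The groups overlapped at both of these ages, with mean differences of -0.01 and 0.06. As a sum over chosen members the ratio was not tested.

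**Figure D2:**
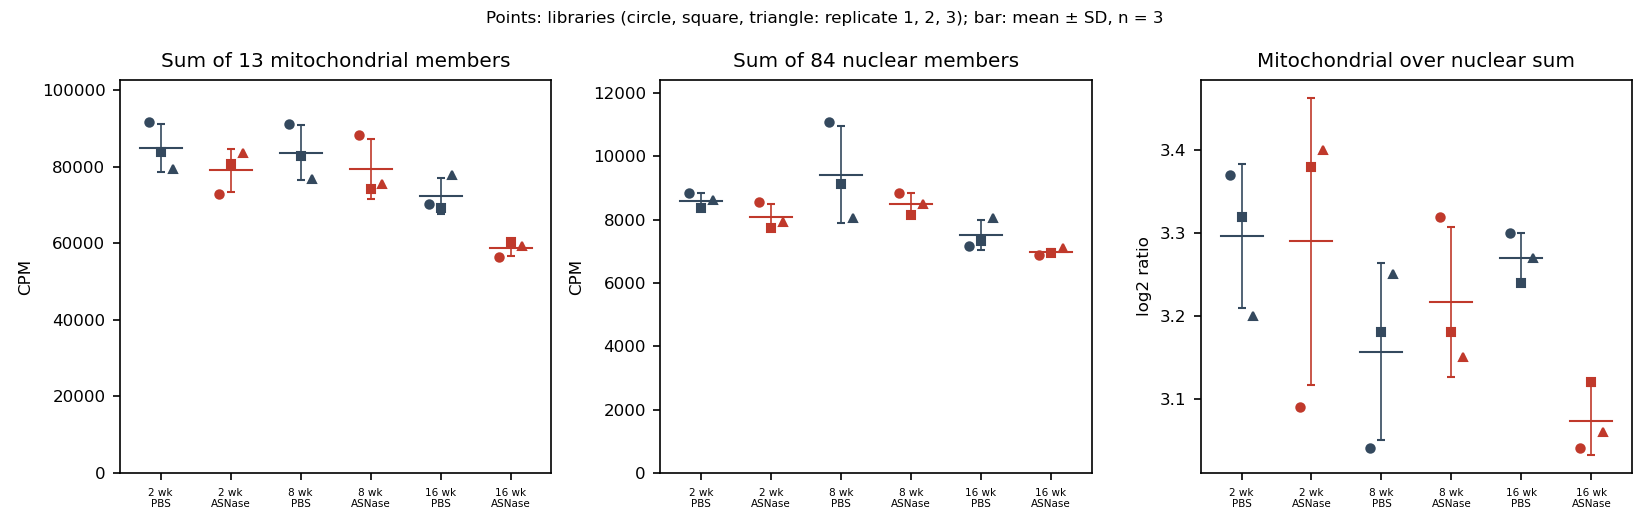
Summed CPM of the 13 mitochondrial members, summed CPM of the 84 nuclear members (both linear from 0) and the log2 ratio of these sums (axis not from 0), in the 6 groups; PBS in blue and asparaginase in red, points are libraries, bars the mean ± SD of 3. The 16-week asparaginase libraries have ratios from 3.04 to 3.12, below the 16-week PBS libraries at 3.24 to 3.30, while the groups overlap at 2 and 8 weeks.

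Of the 13 lists of cell type markers, 4 separated the 16-week groups without overlap, all lower after asparaginase. The 12 skeletal muscle markers summed to 5.13, 19.8 and 3.71 CPM after asparaginase and to 148, 273 and 45.9 CPM with PBS, with 1 marker, Tnnc2, at 0 in both groups. The 6 stellate cell markers ranged from 202 to 236 CPM against 242 to 268 CPM, the 5 white fat markers from 0.358 to 3.82 CPM against 7.32 to 24 CPM, and the 6 heart muscle markers, of which Nppa was at 0 in both groups, from 0.626 to 0.738 CPM against 1.02 to 3.18 CPM. The hepatocyte sums overlapped, with a median of 74476 CPM after asparaginase and 94215 CPM with PBS. The labelled sexes were 1 male and 2 female mice with PBS and 2 male and 1 female mice with asparaginase. The part of these in the mitochondrial and nuclear values was not tested, beyond the sex term of the fit.

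Averaged over the 3 ages, 3 nuclear members fell after asparaginase, 1 each of complexes I, II and III. They were Ndufb3, an accessory subunit of the membrane arm of complex I, Sdhd, a membrane anchor of complex II, and Uqcr11, a small subunit of complex III. In this comparison edgeR called 2.86% of all genes lower, and 3 of 81 is a share of that order. No nuclear member was called higher (2.55% of all genes were). None of the 13 mitochondrial members was called, with 6 lower at an unadjusted p below 0.05 (11.3% of all genes were lower at that level). The smallest adjusted p among them was that of mt-Nd2 (-0.29, SE 0.09, adjusted p = 0.0841 by edgeR). DESeq2 called mt-Nd2, mt-Nd4, mt-Cytb and mt-Co2 lower, and 10 nuclear members, where it called 5.87% of all genes lower.

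Ndufb3 (chromosome 1, 58586384 to 58595964, plus strand, GRCm38) was at 27.5, 27.7 and 22.6 CPM with PBS and at 22.4, 20 and 20.4 CPM with asparaginase at 2 weeks. At 8 weeks it was at 40.2, 34.1 and 29.3 CPM against 26.3, 29.6 and 28.8 CPM, and at 16 weeks at 28.0, 26.1 and 30.5 CPM against 24.4, 25.4 and 23.3 CPM. The treated libraries lay below the controls without overlap at 2 and 16 weeks and overlapped at 8 weeks. Over the ages Ndufb3 fell by 0.27 on the log2 scale (SE 0.07, adjusted p = 0.0348 by edgeR). A pseudogene with near-identical sequence, Gm45930, could share its reads.

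Sdhd (chromosome 9, 50596357 to 50603812, minus strand) was at 189, 187 and 189 CPM with PBS and at 160, 142 and 161 CPM with asparaginase at 2 weeks. At 8 weeks the values were 195, 175 and 152 CPM against 158, 153 and 163 CPM, and at 16 weeks 142, 150 and 145 CPM against 112, 112 and 123 CPM. Again the groups were apart at 2 and 16 weeks and overlapped at 8 weeks. Sdhd fell by 0.24 over the ages (SE 0.06, adjusted p = 0.0444 by edgeR).

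Uqcr11 (chromosome 10, 80402997 to 80406830, minus strand) was at 70.4, 62.8 and 66.3 CPM with PBS and at 53.5, 48.9 and 52.2 CPM with asparaginase at 2 weeks. At 8 weeks it was at 114, 83.3 and 74.6 CPM against 78.1, 64.8 and 64.8 CPM, and at 16 weeks at 57.4, 63.3 and 69.6 CPM against 53.4, 56.6 and 55.7 CPM. The groups were apart at 2 and 16 weeks and overlapped at 8 weeks, and the highest value was that of 8-week PBS library 1. Uqcr11 fell by 0.30 (SE 0.08, adjusted p = 0.0485 by edgeR), and near-identical pseudogenes, Gm11628 and Gm16418, could share its reads.

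All 3 calls lay close to the threshold. Without the 3 mixed-sex 2-week libraries the adjusted p by edgeR was 0.213 for Ndufb3, 0.136 for Sdhd and 0.153 for Uqcr11, with fold changes of -0.22, -0.26 and -0.30, and no nuclear member was called. Leaving out single libraries gave between 0 and 17 called nuclear members: 17 without 8-week PBS library 3, 9 without 8-week PBS library 1, 1 without 2-week PBS library 2 or 3 or 2-week asparaginase library 2, and 0 without 8-week PBS library 2, 2-week asparaginase library 1 or any 1 of the 8-week asparaginase or 16-week libraries.

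**Figure D3:**
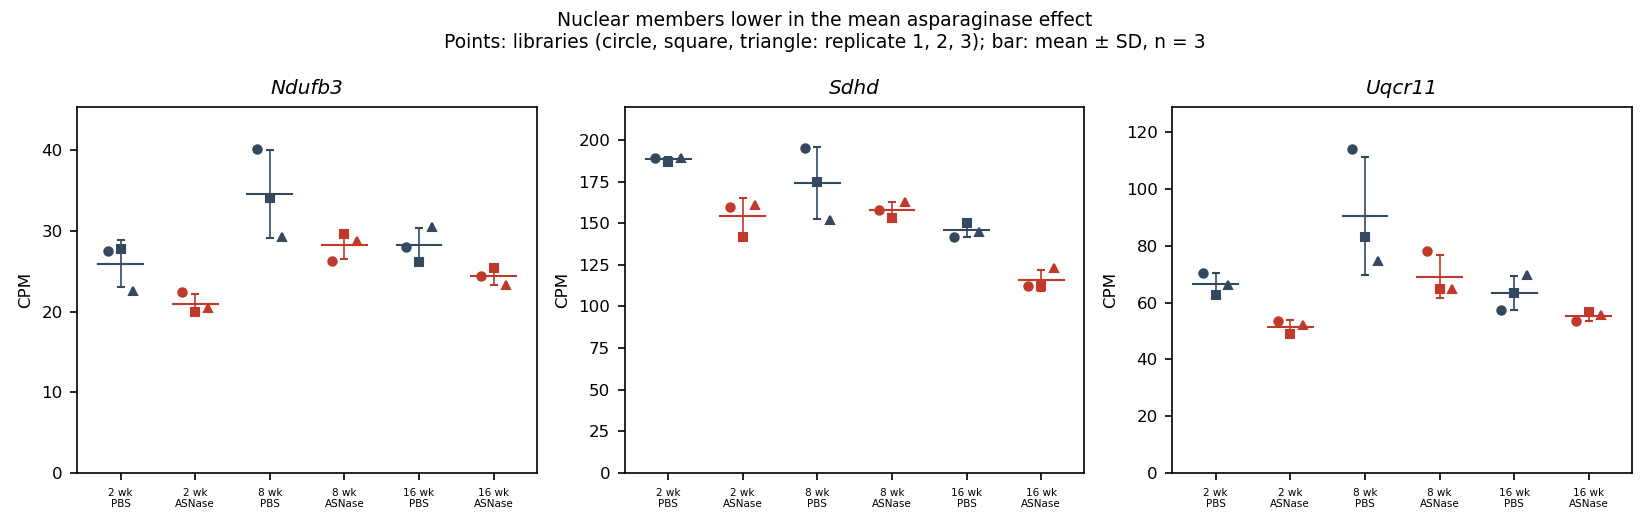
CPM of Ndufb3, Sdhd and Uqcr11 (linear axes from 0) in the 6 groups, PBS in blue and asparaginase in red; points are libraries and bars the mean ± SD of 3. Treated libraries lie below the controls at 2 and 16 weeks in all 3 genes, and at 8 weeks the control libraries spread most, from 74.6 to 114 CPM for Uqcr11.

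The direction was shared by most nuclear members, at small sizes. In the mean over ages 75 of 81 nuclear members had a log2 fold change below 0, against 49.1% of all genes, with a median of -0.13 (all genes 0.00). At all 3 ages 58 of 81 nuclear and 9 of 13 mitochondrial members were below 0, against 19.7% of all genes. Treated libraries lay entirely below the controls in 28 nuclear members at 2 weeks, 16 at 8 weeks and 30 at 16 weeks, where the shares over all genes were 8.64%, 8.57% and 9.63%. Members of the chain share libraries and scaling, so these counts are not independent observations. Some marker sums also differed between the treatment groups at the younger ages, in either direction. At 2 weeks the 12 pancreatic acinar markers ranged from 407 to 1145 CPM after asparaginase and from 15.4 to 100 CPM with PBS. At 8 weeks the 10 Kupffer cell and macrophage markers ranged from 233 to 292 CPM against 310 to 577 CPM, the 7 erythroid markers from 244 to 303 CPM against 505 to 548 CPM, and the 11 squamous epithelium markers from 65.9 to 223 CPM against 39 to 59.7 CPM. None of these sums overlapped between the groups, and their part in the nuclear values was not tested.

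The nuclear medians were -0.10 at 2 weeks, -0.16 at 8 weeks and -0.13 at 16 weeks. The 8-week value rested in part on 8-week PBS library 1, without which it was -0.04. By complex, the medians of the mean effect were -0.13 in complex I, -0.13 in complex II, -0.12 in complex III, -0.12 in the 12 common subunits of complex IV and -0.13 in complex V. All 35 nuclear complex I members were below 0, from Ndufb3 (-0.27) to Ndufa6 (-0.03). In complex II the range was from Sdhd (-0.24) to Sdhb (0.02), the iron-sulfur subunit, and in complex III from Uqcr11 (-0.30) to the core protein Uqcrc2 (-0.05).

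Among the common subunits of complex IV the range was from Ndufa4 (-0.26, SE 0.09), named for complex I but now counted in complex IV, to Cox7a2l (0.18, SE 0.07). In complex V it was from Atp5k (-0.29, SE 0.08, adjusted p = 0.061 by edgeR), the e subunit, to Atp5s (0.17, SE 0.09), a coupling factor. At single ages the lowest nuclear values by complex were those of Ndufa1 (-0.28), Sdhd (-0.27), Uqcr11 (-0.35) and Atp5g1 (-0.37) at 2 weeks. They were those of Ndufb3 (-0.31), Sdhd (-0.14), Uqcr11 (-0.32) and Atp5k (-0.39) at 8 weeks, and of Ndufs1 (-0.31), Sdhd (-0.31), Uqcr11 (-0.23) and Atp5j (-0.25) at 16 weeks. Sdhd and Uqcr11 were thus the lowest nuclear members of their complexes at each age, without being called at any.

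Cox7a2l, counted here in complex IV, was the member farthest above 0 among common subunits at 2 weeks. It was at 67.5, 64.9 and 62.9 CPM with PBS and at 102, 81.7 and 78.0 CPM with asparaginase, without overlap. The log2 fold change was 0.48 (SE 0.12, adjusted p = 0.115 by edgeR), and DESeq2 called it. At 8 weeks it was at 90.9, 75.2 and 64.4 CPM against 74.9, 77.9 and 78.9 CPM (0.00) and at 16 weeks at 63.6, 71.7 and 72.7 CPM against 71.8, 76.6 and 71.0 CPM (0.05), overlapping at both ages. Without 8-week PBS library 1, edgeR also called it at 2 weeks.

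**Figure D4:**
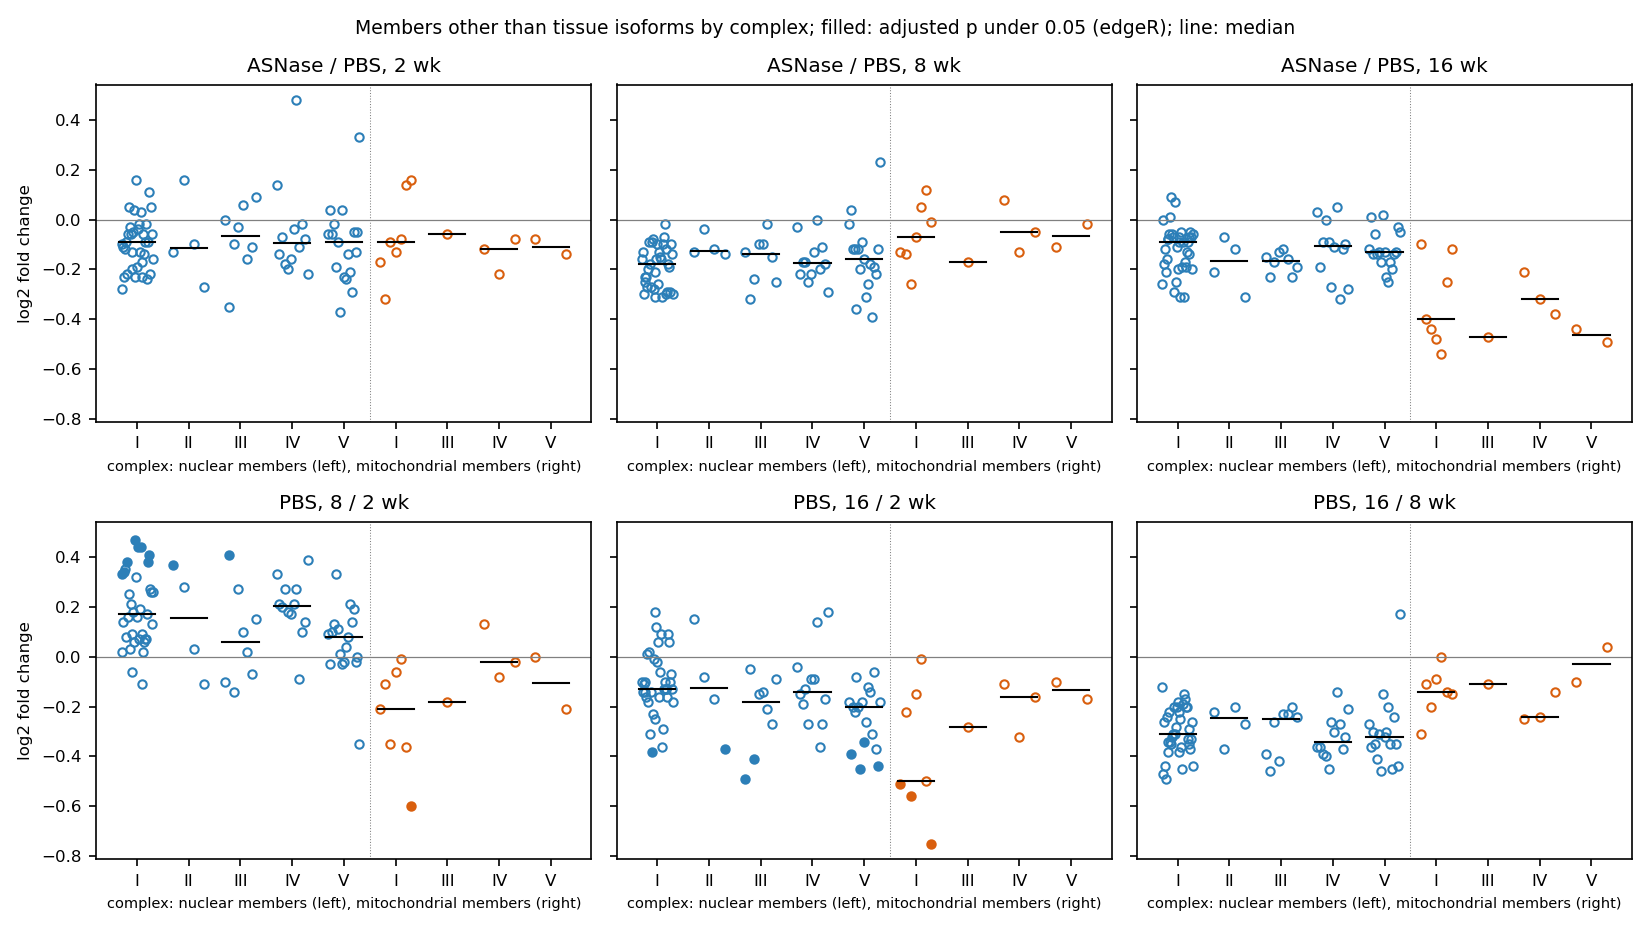
Log2 fold change of the members other than tissue isoforms, in 3 treatment and 3 age comparisons, grouped by complex, with nuclear members in blue on the left and mitochondrial members in orange on the right of each panel; each point is 1 gene, filled where edgeR called it, and lines are medians. No point is filled in the treatment panels, most nuclear points there lie a little below 0, and the mitochondrial points lie lowest at 16 weeks, down to -0.54.

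Age itself was compared in the PBS groups, with the same fit. From 2 to 8 weeks 10 nuclear members rose and 1 fell, where 14.8% of all genes rose and 16.9% fell (31.7% called in all). A rise in 10 of 81 is no larger a share than that over all genes. Of the 10, 8 belong to complex I, and none to complex IV or V. The member that fell was the isoform Cox6b2, described below, which passed the filter on low counts mainly through the 2-week libraries. Ndufb3 rose most clearly, from 27.5, 27.7 and 22.6 CPM to 40.2, 34.1 and 29.3 CPM, all 8-week libraries being higher (0.47, SE 0.11, adjusted p = 0.00668 by edgeR). Sdha, the flavoprotein that oxidises succinate, rose from 340, 347 and 294 CPM to 382, 489 and 369 CPM, also without overlap (0.37, SE 0.11, adjusted p = 0.0261 by edgeR). The others among the 8 with the smallest p were Ndufa3 (0.38), Ndufb6 (0.44), Ndufa10 (0.33), Ndufb9 (0.44), Ndufs7 (0.41), a core subunit of complex I, and Uqcr11 (0.41).

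The nuclear median from 2 to 8 weeks was 0.14, and 0.01 without 8-week PBS library 1. With 1 library left out, the count of called nuclear members was 22 without 8-week PBS library 3, 7 without 8-week PBS library 1, 4 without 8-week PBS library 2 or 2-week PBS library 2, and 2 without 2-week PBS library 3. Without the mixed-sex libraries, which leaves 1 PBS library at 2 weeks, it was 2. Without 8-week PBS library 1, 3 nuclear members rose and 4 fell. Marker sums differed without overlap between these ages as well: skeletal muscle was at 330 to 911 CPM at 8 weeks against 20.9 to 290 CPM at 2 weeks, endothelial cells at 144 to 186 CPM against 199 to 249 CPM, stellate cells at 180 to 270 CPM against 298 to 429 CPM, erythroid cells at 505 to 548 CPM against 568 to 1588 CPM, and pancreatic acinar cells at 9.67 to 10.9 CPM against 15.4 to 100 CPM. Their part in the nuclear values was not tested.

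Between 2 and 16 weeks no nuclear member rose and 10 fell, where 13.2% of all genes rose and 14.5% fell (27.8% called in all). A fall in 10 of 81 is no larger a share than that over all genes. The 10 included 4 subunits of ATP synthase, and none of the common subunits of complex IV. Ndufa9, a complex I subunit at the junction of its arms, went from 76.5, 83.9 and 83.0 CPM to 62.1, 62.2 and 65.0 CPM, with the ages apart (-0.38, SE 0.09, adjusted p = 0.00845 by edgeR). Uqcr10, a small subunit of complex III, went from 81.5, 81.4 and 81.6 CPM to 54.2, 52.2 and 61.8 CPM (-0.49, SE 0.14, adjusted p = 0.0183 by edgeR). Atp5b, the catalytic subunit of ATP synthase, went from 1049, 983 and 1029 CPM to 730, 763 and 826 CPM (-0.39, SE 0.13, adjusted p = 0.038 by edgeR). In each, all 16-week libraries were below all 2-week ones.

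The other nuclear members among the 8 with the smallest p were Atp5o (-0.44), the stalk subunit of ATP synthase, Sdhd (-0.37), Atp5g1 (-0.45), Uqcrb (-0.41) and the isoform Cox6b2, described below. In 43 of the 81 nuclear members the 16-week libraries lay entirely below the 2-week ones, against 20.2% of all genes, and the median was -0.14. The called count was 18 without 8-week PBS library 1, 17 without 8-week PBS library 3, 4 without 16-week PBS library 2, 2 without 16-week PBS library 1 or 3, and 0 without 2-week PBS library 3. It was 5 without 16-week asparaginase library 3, and 6 without 2-week PBS library 1 or 2, 8-week asparaginase library 2, or 16-week asparaginase library 1 or 2. At 16 weeks the marker sums of endothelial cells (171 to 178 CPM) and stellate cells (242 to 268 CPM) were below the 2-week ranges given above, and that of white fat was higher, at 7.32 to 24 CPM against 0.178 to 1.75 CPM; their part was not tested.

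From 8 to 16 weeks edgeR called no nuclear or mitochondrial member, where 0.413% of all genes were called. At an unadjusted p below 0.05 it gave 48 nuclear members, all lower, against 7.68% of all genes, and DESeq2 called 11 nuclear members lower (1.85% of all genes were) and no mitochondrial one. The nearest to the edgeR threshold was Ndufa10, a complex I subunit, at 101, 100 and 79.9 CPM at 8 weeks and 62.3, 67.7 and 72.4 CPM at 16 weeks (-0.47, adjusted p = 0.0676 by edgeR). Its ages did not overlap, which held for 34 nuclear members in this direction (8.18% of all genes). The nuclear median was -0.31, with 79 of 81 below 0 (49.1% of all genes), and the lowest of each complex were Ndufa13 (-0.49), Sdhb (-0.37), Uqcr11 (-0.46), the common subunit Cox6b1 (-0.45) and Atp5g1 (-0.46). Without 8-week PBS library 1 the median was -0.17, and without 8-week PBS library 3 edgeR called 19 nuclear members. The skeletal muscle sum was lower at 16 weeks (45.9 to 273 CPM) than at 8 weeks (330 to 911 CPM), and the pancreatic acinar sum was higher (12.3 to 390 CPM against 9.67 to 10.9 CPM), both without overlap, and their part was not tested.

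Among the 13 mitochondrial members the changes with age called by edgeR were all in complex I. It called 1 lower from 2 to 8 weeks, where 16.9% of all genes were. From 2 to 16 weeks it called 3 lower, where 14.5% of all genes were. From 2 to 8 weeks mt-Nd6 fell from 1356, 1580 and 1633 CPM to 1130, 1095 and 848 CPM, with all 8-week libraries lower (-0.60, SE 0.15, adjusted p = 0.0101 by edgeR). It was 988, 988 and 850 CPM at 16 weeks, a fall of 0.75 on the log2 scale from 2 weeks (SE 0.15, adjusted p = 0.00306 by edgeR). Reads of mt-Nd6 could be mixed with antisense RNA, as given above, and how well a poly(A) library recovers mt-Nd6 was not measured. From 2 to 16 weeks mt-Nd1 fell from 5469, 5806 and 5375 CPM to 3995, 3531 and 4131 CPM (-0.51, SE 0.14, adjusted p = 0.0137 by edgeR), and mt-Nd3 from 1150, 866 and 1048 CPM to 703, 659 and 708 CPM (-0.56, SE 0.17, adjusted p = 0.0247 by edgeR). The ages did not overlap in either gene.

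No mitochondrial member of complexes III, IV or V was called by edgeR between ages. From 2 to 16 weeks DESeq2 called 6 mitochondrial members lower, mt-Co2 and mt-Cytb among them (14.4% of all genes were lower). The 13 had medians of -0.11 from 2 to 8 weeks, -0.22 from 2 to 16 weeks and -0.14 from 8 to 16 weeks. From 2 to 8 weeks the call on mt-Nd6 was lost without 2-week PBS library 3, where no mitochondrial member was called and the median was -0.29, and mt-Nd3 was called beside mt-Nd6 without 8-week PBS library 1, and mt-Nd5 without 8-week PBS library 2. From 2 to 16 weeks only mt-Nd6 was called without 16-week PBS library 3, and likewise without the mixed-sex libraries.

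Within the mitochondrial genome the shares of single genes also differed by group. Of all counts of the 13 members, mt-Nd6 took 1.81% ± 0.297 (SD, n = 3) with PBS and 2.22% ± 0.116 with asparaginase at 2 weeks. At 8 weeks the shares were 1.22% ± 0.112 and 1.28% ± 0.0652, and at 16 weeks 1.31% ± 0.188 and 1.42% ± 0.169. The share of mt-Nd1 at 16 weeks was 5.37% ± 0.29 with PBS and 6.23% ± 0.117 with asparaginase, and that of mt-Co1 29.9% ± 0.845 and 32.7% ± 0.628. The share of mt-Cytb was 10.3% ± 0.59 and 9.02% ± 0.444. These shares need no scaling between libraries and were not tested.

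As a share of all counts, the mitochondrial members took 10.2% to 11.7% at 2 weeks and 4.31% to 10.7% at the older ages. Transcripts of the major urinary proteins, which adult liver makes in quantity, took 0.046% to 0.579% at 2 weeks and 5.39% to 47.9% later. The CPM values above are scaled for composition, and the part of these transcripts in the age comparisons was not tested.

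The tissue isoforms of complex IV were at low levels. Cox7b2 and Cox8c, known as testis forms, had 0 counts in all 18 libraries, where 3 counts over all libraries would correspond to 0.00477 CPM. Cox4i2, the lung form, had 69 counts in all and did not pass the filter on low counts. Its partner Cox4i1, the common form, had a mean of 182 CPM. Floors and levels this low cover counting error only.

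Cox6b2, a testis form, was highest in the 2-week PBS libraries, at 0.474, 0.949 and 1.17 CPM. The PBS libraries had 0.287, 0.0994 and 0.30 CPM of it at 8 weeks and 0.18, 0.292 and 0.07 CPM at 16 weeks. It fell from 2 to 8 weeks (-2.61, SE 0.51, adjusted p = 0.00245 by edgeR) and from 2 to 16 weeks (-2.49, SE 0.52, adjusted p = 0.00378 by edgeR), and the ages did not overlap. The counts behind these values were 16, 35 and 42 at 2 weeks, 9, 3 and 12 at 8 weeks and 6, 10 and 2 at 16 weeks. With a minimum count of 10, Cox6b2 passed the filter mainly through the 2-week libraries, where it is high, so the filter favoured such a fall. With no filter on low counts edgeR also called Cox6b2 in both comparisons. Its common partner Cox6b1 had a mean of 103 CPM. Ndufa4l2, a paralog of Ndufa4 known to be induced in hypoxia, was at 1.07, 1.14 and 1.47 CPM at 2 weeks and 0.839, 0.993 and 0.595 CPM at 16 weeks with PBS, and fell (-0.80, SE 0.27, adjusted p = 0.0447 by edgeR). Ndufa4 itself had a mean of 165 CPM and was not called between these ages (0.18).

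The heart and skeletal muscle forms Cox6a2, Cox7a1 and Cox8b were highest in 8-week asparaginase library 1, at 20.2, 10.2 and 8.95 CPM. That library also had the highest sum of the skeletal muscle markers, 2453 CPM, where the other libraries ranged from 3.71 to 911 CPM. The other 8-week asparaginase libraries had 3.16 and 1.64 CPM of Cox6a2 with marker sums of 372 and 158 CPM. The 8-week PBS libraries had 8.00, 3.61 and 8.27 CPM of Cox6a2 with marker sums of 774, 330 and 911 CPM.

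At 16 weeks Cox8b was at 0.809, 1.14 and 0.385 CPM with PBS and at 0.0352, 0.179 and 0 CPM with asparaginase, without overlap (-3.00, SE 1.36, adjusted p = 0.433 by edgeR). Cox7a1 was at 1.14, 1.99 and 1.47 CPM against 0.352, 0.388 and 0.778 CPM, also without overlap (-1.48, SE 0.54, adjusted p = 0.331 by edgeR). Cox6a2 overlapped, at 1.53, 2.34 and 0.315 CPM against 0.281, 0.388 and 0.0741 CPM. The muscle marker sums of these libraries, given above, were lower after asparaginase as well, and the part of muscle RNA in these values was not tested. The common partners Cox6a1, Cox7a2 and Cox8a had means of 126, 77.8 and 117 CPM and were not called in any comparison.

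**Figure D5:**
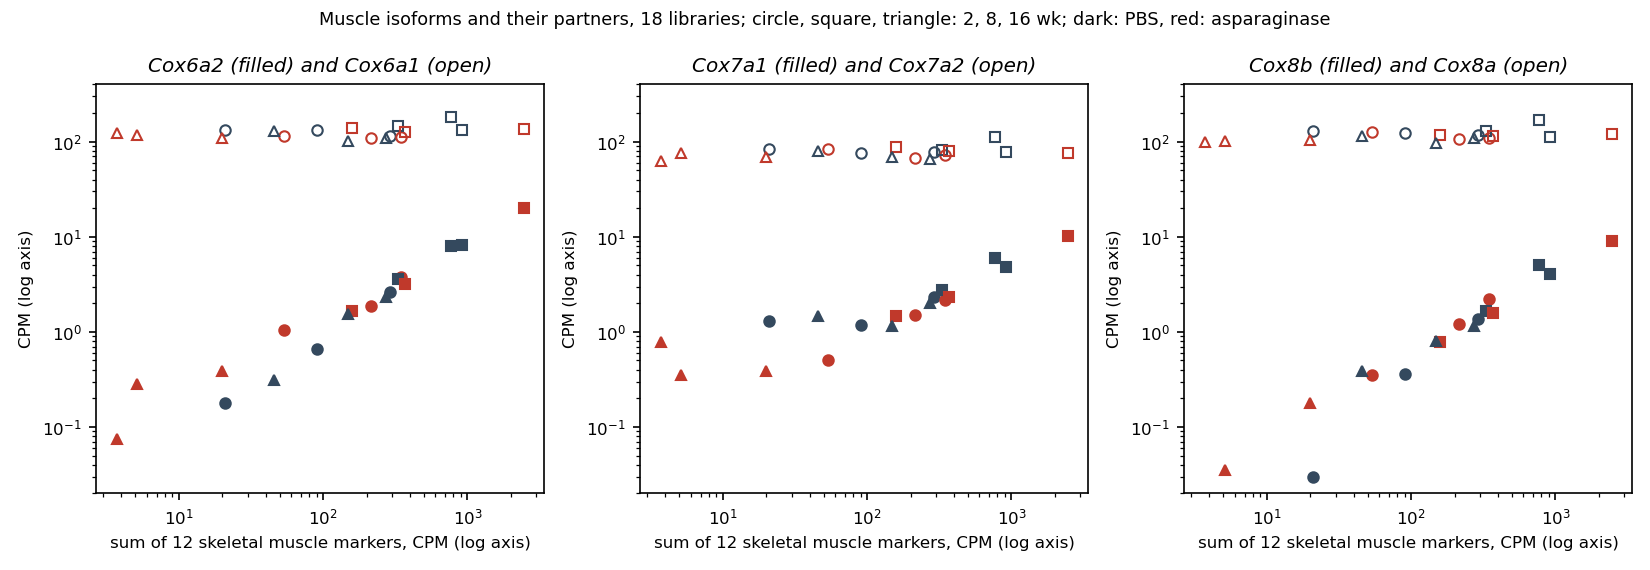
Levels of Cox6a2, Cox7a1 and Cox8b against the summed level of the 12 skeletal muscle markers in the 18 libraries (CPM, log axes), filled, with their common partners Cox6a1, Cox7a2 and Cox8a as open symbols; circles, squares and triangles are 2, 8 and 16 weeks, PBS is dark and asparaginase red, and 1 library with 0 CPM of Cox8b is not drawn. The library with the highest marker sum, 2453 CPM, has the highest level of all 3 genes, and the 16-week asparaginase libraries, with sums from 3.71 to 19.8 CPM, have at most 0.778 CPM of each.

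Genes that build or supply the chain were counted in companion lists. Among 46 assembly factors tested, 3 were lowered by asparaginase in the mean over ages and none raised (5.41% of all genes were called in either direction). They were Ndufaf1 (-0.27, SE 0.06, adjusted p = 0.0201 by edgeR) and Ndufaf3 (-0.42, SE 0.11), which help assemble complex I, and Foxred1 (-0.25, SE 0.06), another complex I factor. Ndufaf1 averaged 17.8 ± 2.25 CPM (SD, n = 3) with PBS and 14.9 ± 0.951 with asparaginase at 8 weeks, and 15.5 ± 0.723 against 13.2 ± 0.916 at 16 weeks. From 2 to 8 weeks 9 assembly factors rose, where 14.8% of all genes did. Among them were Coa5 (0.49), Timmdc1 (0.69), Taco1 (0.52) and Cox19 (0.64). Cox15 (-0.36), a heme A synthesis enzyme, fell, where 16.9% of all genes did. Between 2 and 16 weeks 5 rose and 1 fell, against 13.2% and 14.5% of all genes.

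Of 21 nuclear regulators of respiratory genes, edgeR called Gabpa alone by treatment, higher in the mean over ages (0.30, SE 0.06, adjusted p = 0.02 by edgeR). In the mean 5.41% of all genes were called and 2.55% were higher, and 1 of 21 is a share of that order. Gabpa averaged 35.1 ± 5.03 CPM with PBS and 46.9 ± 6.03 with asparaginase at 8 weeks (SD, n = 3), and 39.4 ± 2.03 against 49.7 ± 3.83 at 16 weeks. Its exons overlap those of Atp5j by 397 bases on the opposite strand, so that without strand information their reads cannot be told apart there. Nrf1 was at 7.04 ± 0.429 against 8.37 ± 0.769 CPM at 16 weeks and was not called. Ppargc1a, the coactivator of mitochondrial biogenesis, fell with age in PBS mice, from 27.7 ± 8.12 CPM at 2 weeks to 9.60 ± 0.778 at 8 weeks (-1.57, SE 0.24, adjusted p = 0.000492 by edgeR) and 8.98 ± 2.72 at 16 weeks (-1.74, SE 0.25, adjusted p = 0.000286 by edgeR). After asparaginase at 16 weeks it was at 4.16 ± 0.51 CPM (-0.93, adjusted p = 0.222 by edgeR), and DESeq2 called it lower there (1.06% of all genes were). DESeq2 also called Myc higher beside Gabpa in the mean over ages, and no share over all genes is given for that count. In all, 4 regulators rose and 2 fell from 2 to 8 weeks, against 14.8% and 16.9% of all genes. From 2 to 16 weeks 3 rose and 2 fell, against 13.2% and 14.5% of all genes.

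Of 18 mitochondrial carriers and uncoupling proteins tested, edgeR called Slc25a23 alone by treatment, a calcium-regulated carrier of ATP-Mg and phosphate, lower in the mean over ages (-0.37, SE 0.07, adjusted p = 0.0164 by edgeR). In the mean 5.41% of all genes were called, and 1 of 18 is a share of that order. Slc25a23 averaged 208 ± 11.1 CPM with PBS and 163 ± 11.5 with asparaginase at 8 weeks, and 192 ± 25 against 146 ± 17.8 at 16 weeks (SD, n = 3). DESeq2 called it lower in the mean and at 16 weeks, where 5.87% and 1.06% of all genes were lower. It called the creatine kinase gene Ckmt1 higher at 8 weeks, where 4.06% of all genes were called in either direction. Between 2 and 16 weeks Slc25a4 (-2.09) and Ucp2 (-0.68) fell and 1 gene rose, against 14.5% and 13.2% of all genes. Slc25a4 is the muscle and heart form of the ADP/ATP carrier. The brown fat gene Ucp1 rose (5.01, SE 1.56), from 0.0994 ± 0.172 to 1.85 ± 1.98 CPM, with a spread as large as its mean.

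The list of 21 citric acid cycle genes also held subunits and kinases of the pyruvate dehydrogenase complex, among them Dlat, Pdhx, Pdk1 and Pdk4. The list of 22 electron carrier genes also held enzymes that feed the chain, such as Gpd2, and ubiquinone synthesis genes, such as Coq6, Coq8a and Coq8b. In neither list did edgeR call a gene by treatment, at any age or in the mean. At an unadjusted p below 0.05 edgeR gave 1, 3, 3 and 5 citric acid cycle genes at 2, 8 and 16 weeks and in the mean, and 1, 3, 1 and 4 electron carrier genes. In the same order, 12.6%, 18.4%, 11.4% and 22.4% of all genes were at that level. DESeq2 called 2 citric acid cycle genes and 1 electron carrier gene in the mean, all lower (5.87% of all genes were), and none at a single age. From 2 to 8 weeks 4 genes of the citric acid cycle list rose and 1 fell, against 14.8% and 16.9% of all genes. Those that rose were Dlat (0.49), Pdhx (0.46), Cs (0.46) and Pdk1 (0.44), and Idh2 (-0.62) fell. By 16 weeks, against 2 weeks, Pdk1 (0.50) rose, and Idh2 (-1.15), Pdk4 (-2.73) and Suclg1 (-0.44) fell. Over all genes 13.2% rose and 14.5% fell between these ages. In the electron carrier list 2 genes rose and 7 fell from 2 to 16 weeks. The falls included Coq8a (-0.76), Coq8b (-0.48), Gpd2 (-0.71) and Coq6 (-0.36). Coq8a was also called from 8 to 16 weeks (-1.11, SE 0.18, adjusted p = 0.0287 by edgeR), where 0.413% of all genes were. Ndufab1 fell from 2 to 16 weeks (-0.25).

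Of 34 genes of mitochondrial DNA maintenance and transcription, edgeR called none by treatment at any age or in the mean, with 7, 4, 0 and 8 at an unadjusted p below 0.05 at 2, 8 and 16 weeks and in the mean (12.6%, 18.4%, 11.4% and 22.4% of all genes). DESeq2 called 1 in the mean, lower (5.87% of all genes were), and none at a single age. From 2 to 8 weeks 5 rose (14.8% of all genes did), among them Tk2 (0.55), Elac2 (0.51) and Supv3l1 (0.36). From 2 to 16 weeks 3 rose (13.2% of all genes did), among them Tk2 (0.36) and Polg2 (0.56). Mterf2 (-0.96) and Top1mt (-0.37) fell between these ages (14.5% of all genes did).

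The list of stress response genes held several members that rose after asparaginase, and its genes were known from earlier results of these data to respond. Of 18 tested, 5 rose at 2 weeks, 2 at 8 weeks, 3 at 16 weeks and 7 in the mean over ages, and none fell. Of all 16213 genes, 53, 31, 31 and 413 were called higher, in the same order. Asns, asparagine synthetase, went from 3.70 ± 0.233 to 25.5 ± 5.72 CPM at 2 weeks (2.85, SE 0.22, adjusted p = 0.000203 by edgeR) and from 0.936 ± 0.502 to 23.0 ± 8.52 CPM at 16 weeks (4.27, SE 0.26, adjusted p = 1.08e-05 by edgeR). At 8 weeks it went from 1.92 ± 1.75 to 8.78 ± 5.09 CPM (1.80, SE 0.24, adjusted p = 0.0392 by edgeR). The mitochondrial chaperone Hspa9 (0.76) and protease Lonp1 (0.94) rose at 2 weeks.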

How the data were processed

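The authors deposited 1 table of raw counts per gene (whole numbers, not normalized) for liver polyadenylated RNA in 18 libraries. TopHat2 2.0.9, TopHat and DESeq2, with the builds GRCm38 and mm10, are named in the submitters' processing notes without a role; no source used here names the counter, annotation or strand setting. Total counts were between 24690871 and 46949361. Of 37315 identifiers, 35533 matched GENCODE M21 (GRCm38), which gave symbols, types and lengths.

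All counts entered 1 edgeR fit (version 4.0.16, R 4.3.3; filterByExpr with a minimum count of 10 and total of 15; TMM scaling; 1 term per group; a sex term within each age coded 0.5 and -0.5), with 9 residual degrees of freedom. Quasi-likelihood tests covered 16213 genes, adjusted by Benjamini-Hochberg within each comparison; an SE is the absolute log2 fold change over the square root of F. Scripts were tested on simulated data. The 81 nuclear and 13 mitochondrial members tested were read from that fit; Cox4i2, Cox7b2 and Cox8c did not pass the filter. CPM used TMM-scaled library sizes, and CPM per kb the length of the principal transcript. Matches in other genes with at least 95% identity over 100 bp, found on either strand with BLAST 2.17.0, existed for 35 nuclear members (21 with a pseudogene) and 9 mitochondrial ones. Not all are copies of the member: they include overlapping genes, such as Gabpa for Atp5j. Ndufc1 matched 25 genes, none of them a pseudogene. Same-strand exons of other genes overlapped 12 members, and antisense exons 29.

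The members, companion lists and markers were chosen with earlier results of these data known. Values were given for all mitochondrial members, the tissue isoforms and their partners, the 8 called nuclear members with the smallest p per direction and comparison, the extremes of each complex, the 3 most and least variable nuclear members, and up to 4 called genes per direction of each list; a few genes per list were then left out, and 1 item is not reported here. Values of mt-Rnr1 and mt-Rnr2, and Ndufa10 from 8 to 16 weeks, were chosen after seeing the data. Alternatives were DESeq2 1.42.0, RLE size factors, library sizes without mitochondrial genes, no filter, no sex term, each library left out, and the fits without the mixed-sex libraries.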

Additional observations from a re-analysis of the deposited data

How the results depend on the processing

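Counts below are of members called by edgeR unless DESeq2 is named. Averaged over the ages, the 3 nuclear calls became 10 with DESeq2, 1 with no filter on low counts, 5 with no sex term, 0 without the mixed-sex 2-week libraries and 0 without 8-week asparaginase libraries 1 and 2, which carried squamous epithelium transcripts (an alternative chosen after seeing the data); single libraries left out gave 0 to 17. The 0 mitochondrial calls became 4 with DESeq2, and 0 to 1 with a library left out (1 without 2-week or 8-week PBS library 3). At 16 weeks DESeq2 gave 3 mitochondrial calls. At 2 weeks the 0 nuclear calls became 1 with DESeq2, and 0 to 1 with a library left out. From 2 to 8 weeks the 11 nuclear calls became 7 with no filter, 6 without the 8-week asparaginase libraries 1 and 2, 2 without the mixed-sex libraries, and 2 to 22 with a library left out; the 1 mitochondrial call became 0 to 2. From 2 to 16 weeks the 10 nuclear calls became 5, 6 and 2 under the same changes, and 0 to 18 with a library left out; the 3 mitochondrial calls became 6 with DESeq2, 1 without the mixed-sex libraries and 1 to 4 with a library left out. From 8 to 16 weeks the 0 nuclear calls became 11 with DESeq2, 1 with no sex term (Ndufa10) and 0 to 19 with a library left out. Both fits that leave out several libraries leave 1 library in a group, which is assumed to vary like the other groups. The causes were not tested. Under RLE size factors and under library sizes without mitochondrial genes no count moved past 1.5 times, and no called value reversed under any alternative run. The log2 ratio of sums moved by less than the replicate spread with the tissue isoforms left out. Protein identity between isoform pairs was not run. No paired analysis was possible because the replicate numbers follow accession order and pair no mice. With 3 libraries a group, single-gene differences of the size of the nuclear medians are near 1 SE at a single age.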

Other observations

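The mitochondrial ribosomal RNAs, which are not among the members and were looked at after the values were seen, were high in several asparaginase libraries. In the 16-week asparaginase libraries mt-Rnr2 was at 2455, 808 and 3126 CPM and in the 16-week PBS libraries at 701, 598 and 1047 CPM. The groups overlapped, library 2 with asparaginase being within the range of the controls. The smaller ribosomal RNA, mt-Rnr1, was at 1494, 575 and 1977 CPM against 508, 483 and 615 CPM. The highest mt-Rnr2 value of all libraries was that of 8-week asparaginase library 3, 3296 CPM, with 1862 CPM of mt-Rnr1, where the other 8-week asparaginase libraries had 1101 and 976 CPM of mt-Rnr2. These RNAs carry short tails, and how much of them a poly(A) library recovers was not measured.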
